A study of Oryza sativa with 7 samples.

Results

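In rice, 23 of the 37858 loci in the deposited tables were present in both developing seed and young panicle and almost silent in root and leaf. A locus was chosen when it had at least 10 counts per 1000000 (CPM) in each of the 2 seed and 2 panicle libraries and under 1 CPM in the root library and each of the 2 leaf libraries. CPM here is the sum of a locus's exon-bin counts, scaled by the total of such counts in the library. The rule capped the list at 300 loci, and the cap was not reached. The levels in all 7 libraries chose these loci, so the gap between reproductive and vegetative tissues is given as a description, with no test.

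All libraries came from the Oryza sativa cultivar Ilmi, with no treatment or transgene in the labels. Seed was collected 20 to 30 days after pollination while the grain was ripening (the sample names give day 21). Panicle libraries were made from flowers not yet pollinated, on panicles 0.5 to 1.5 cm long. Root and leaf were sampled at 14 days. Seed, panicle and leaf have 2 libraries each and root has 1. The labels do not say how many plants went into a library or whether the replicates are different plants, so a p-value speaks only for the variation among these libraries, and that variation may be technical. By its title the series set out to find genes whose transcripts are spliced in alternative ways.

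A young rice panicle bears spikelets in which the hull, stamens and pistil are forming. After pollination the ovary becomes the grain, with embryo and endosperm inside the maternal seed coat and fruit wall. Flowering plants use transcription factors, among them the MADS-box family, to give floral organs their identity, and some of these factors are known to act again in ovules and seeds. The tables identify genes by rice locus ID only. None of the 23 IDs was found in the RefSeq gene table used here, so no gene name, role or sequence is given for them, and the tissue labels were not checked against named marker genes. In whole tissues, fewer cells that express a gene and less RNA per cell cannot be told apart.

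The exon-bin counts assigned to loci totalled 17866682 and 11989260 in seed, 19717360 and 16139784 in panicle, 20940842 in root, and 22218323 and 49312943 in leaf. At these depths 10 CPM corresponds to 120 counts in the shallowest library and 1 CPM to 49.3 counts in the deepest. The lowest count of any of the 23 loci in seed or panicle was 166, and the highest in root or leaf was 49. Together the 23 took up 0.182% of all counts in seed 1 and 0.109% in seed 2, against 0.286% in panicle 1 and 0.210% in panicle 2. In root they held 75 counts in all, in leaf 1 they held 85 and in leaf 2 they held 253. The counting options are not stated. A read that covers several bins may be counted in each, so these counts are not taken as numbers of reads.

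Sharing by seed and panicle alone was uncommon. Of 8077 loci with 10 CPM or more in all 4 seed and panicle libraries, 6801 also had 10 CPM or more in root and leaf. Only 25 of the 8077 were under 1 CPM in both leaf libraries, and 23 of those 25 were also under 1 CPM in root, which is 0.285% of the 8077. Loci under 1 CPM in root were less rare, at 79 of the 8077. Of these, 34 had 10 CPM or more in both leaf libraries.

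Applied to other tissues, the same pair of limits gave 204 loci for seed alone, 10 for panicle alone, 290 for root alone and 65 for leaf alone. Among pairs of tissues, seed with panicle gave the highest number, 23. Seed with leaf gave 15, root with leaf 13, panicle with leaf 7, seed with root 5, and panicle with root none. Thus the loci shared by seed and panicle outnumbered those of panicle alone. Because single tissues differ in their number of libraries, with 1 for root, the limits were not equally strict for every set. These CPM values were also not adjusted for library composition, so a limit may stand for different levels in different tissues. With such an adjustment 18 loci met the limits for seed and panicle, of which 17 were among the 23. The other sets were not recounted in that way.

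**Figure D1:**
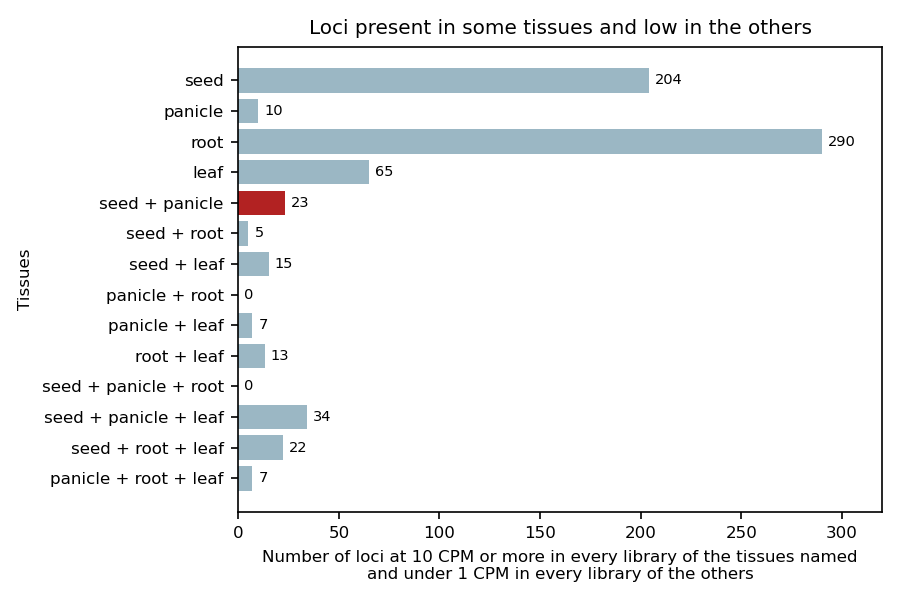
Number of loci (horizontal axis) at 10 CPM or more in every library of the tissues named on the vertical axis and under 1 CPM in every library of the other tissues. The red bar is the set of 23 loci shared by seed and panicle, and no locus met the limits for panicle with root.

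The mean over the 4 seed and panicle libraries ran from 15.1 CPM for Os01g0209500 to 327 CPM for Os07g0108900, with a median of 41.8 CPM. Loci with many or long exons collect more counts, and lengths were not used here, so the order of loci is one of counts and not of transcripts. The 10 loci with the highest mean CPM are described one by one, and the other 13 by their ranges.

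Os07g0108900 (chromosome 7, 11 bins) had 98.4 and 82.7 CPM in seed, against 492 and 634 CPM in panicle. It had 4 counts in root, which is 0.191 CPM, and no count in leaf. Both panicle libraries lay above both seed libraries, and leaf was empty at a depth where 3 counts would be 0.135 CPM in leaf 1 and 0.0608 CPM in leaf 2. Os06g0162800 (chromosome 6, 8 bins) had 26.1 and 14.0 CPM in seed, against 258 and 119 CPM in panicle. Os02g0682200 (chromosome 2, 8 bins) had 52.7 and 14.5 CPM in seed, against 244 and 195 CPM in panicle. Os04g0580700 (chromosome 4, 8 bins) had 31.1 and 15.2 CPM in seed, against 129 and 66.6 CPM in panicle. In all 4 of these loci the seed and panicle libraries did not overlap. Os06g0162800 had 3 counts in root and 1 in leaf, Os02g0682200 had 16 in leaf and none in root, and Os04g0580700 had 18 in leaf and none in root.

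Os08g0531700 (chromosome 8, 8 bins) had 460 and 165 CPM in seed, against 421 and 145 CPM in panicle. Os09g0507200 (chromosome 9, 8 bins) had 303 and 161 CPM in seed, against 255 and 94.8 CPM in panicle. In both loci library 1 stood above library 2 within each tissue, and on this scale the seed and panicle values overlapped. Os08g0531700 had 2 counts in leaf 2 and none in leaf 1 or root, and Os09g0507200 had 1 count in leaf 1 and none in leaf 2 or root. Os03g0752800 (chromosome 3, 10 bins) had 132 and 69.1 CPM in seed, against 265 and 360 CPM in panicle. It kept low counts in every vegetative library, with 0.478 CPM in root and 0.630 and 0.324 CPM in leaf.

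Os12g0578200 (chromosome 12, 6 bins) had 86.9 and 137 CPM in seed, against 247 and 13.9 CPM in panicle. Os11g0513900 (chromosome 11, 25 bins) had 44.6 and 38.7 CPM in seed, against 16.8 and 135 CPM in panicle. Each of these loci was high in 1 panicle library and near the lower limit in the other, in opposite libraries, so the seed values lay between the panicle values. Os05g0146100 (chromosome 5, 12 bins) had 68.6 and 40.0 CPM in seed, against 61.2 and 40.0 CPM in panicle, with overlapping libraries. Its highest vegetative value was 0.495 CPM in leaf 1.

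The other 13 loci had mean levels of 15.1 to 44.6 CPM in seed and panicle. Over all 23 loci, 10 had no count in root, 2 had none in either leaf library, and Os11g0516800 had none in any of the 3. Os11g0516800 had 18.7 and 14.6 CPM in seed, against 15.1 and 27.1 CPM in panicle. With seed and panicle libraries pooled it was at least 583-fold higher than in pooled root and leaf, a bound computed against 3 counts over the 3 libraries. A further 4 loci had 1 to 3 counts in root and leaf together. In the remaining 18 the pooled seed and panicle level exceeded the pooled root and leaf level by 49.5-fold for Os11g0547000 to 7977-fold for Os07g0108900, with a median of 275. Bounds and counts cover counting error only, and a read over several bins may count more than once.

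**Figure D2:**
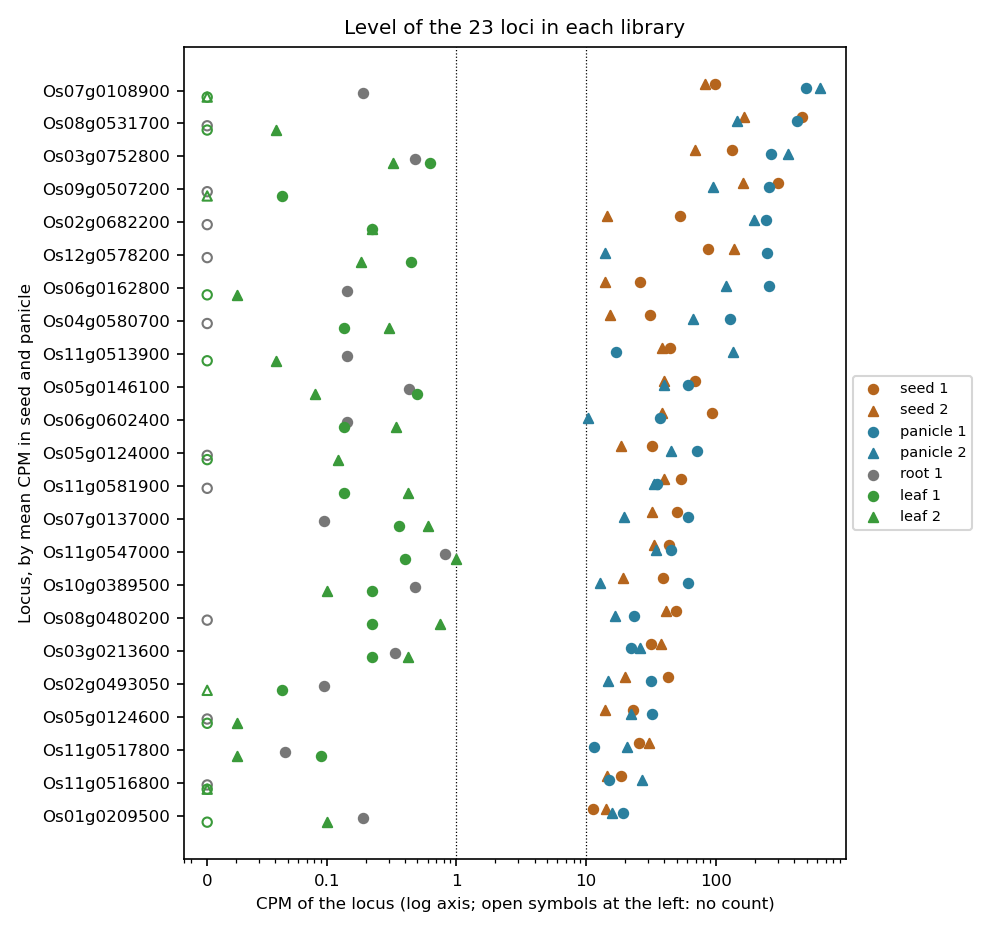
CPM of each of the 23 loci (log axis) in each library, with loci ordered by their mean in seed and panicle; open symbols at the left mark libraries with no count. Dotted lines mark the limits of 1 and 10 CPM, and Os11g0516800 is empty in root and both leaf libraries.

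Several loci stood close to a limit. Nearest above the minimum were Os06g0602400 at 10.3 CPM in panicle 2, Os01g0209500 at 11.2 CPM in seed 1 and Os11g0517800 at 11.5 CPM in panicle 1. Nearest below it were Os11g0517400 at 9.38 CPM in panicle 1, Os01g0218500 at 8.92 CPM in seed 2 and Os06g0343900 at 8.74 CPM in panicle 2. At the vegetative limit, Os11g0547000 at 0.994 CPM in leaf 2, Os08g0480200 at 0.750 CPM in leaf 2 and Os03g0752800 at 0.630 CPM in leaf 1 were inside. Os06g0246500 at 1.10 CPM in leaf 2, Os11g0649300 at 1.15 CPM in root and Os03g0215400 at 1.17 CPM in leaf 1 were outside. The last of these had at least 115 CPM in every seed and panicle library. The list therefore has no gap at its edges. A minimum of 5 CPM gave 48 loci and one of 20 CPM gave 8, and without seed 2 the rule gave 34.

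The 2 panicle libraries differed more at these loci than at most others. Of the 23 loci, 9 were over 2-fold apart between panicle libraries, which is 39.1%. Among the 8077 loci with 10 CPM or more in all seed and panicle libraries, 164 were, or 2.03%. Over 4-fold apart were 3 of the 23 and 11 of the 8077, and these 11 include the 3. They were Os12g0578200, 17.8-fold higher in panicle 1, Os10g0389500, 4.76-fold higher in panicle 1, and Os11g0513900, 8.01-fold higher in panicle 2. In the lower library these loci had 224, 206 and 332 counts, summed over bins, which are not numbers of reads. The cause of the differences was not tested. The median absolute log2 ratio between panicle libraries was 0.85 for the 23 loci and 0.22 for the 8077.

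The rule did not use the ratio between replicates, and the figures are a description without a test. Of the 23 loci, 17 (73.9%) were higher in panicle 1 and 6 were higher in panicle 2. Of the 8077 loci, 61.8% were higher in panicle 1 on the same CPM scale. The 6 were Os07g0108900, Os03g0752800, Os03g0213600, Os11g0513900, Os11g0516800 and Os11g0517800. Seed libraries were less unusual at these loci. There, 6 of 23 loci were over 2-fold apart (26.1%), against 19.5% of the 8077, and 3 (13.0%) against 13.7% after TMM scaling, which adjusts for library composition. The panicle share was 39.1% on both scales. Sets defined by the same limits in similar tissues lay between these values or above them, with 5 of 34 loci over 2-fold apart between panicle libraries for seed, panicle and leaf together, 2 of 10 for panicle alone and 3 of 7 for panicle and leaf. Only the set of 7 reached the share of the 23, and 6 of those 7 were higher in panicle 2. Over 4-fold apart were 1 of the 7, 0 of the 34 and 0 of the 10. Wide differences between the panicle libraries were thus not limited to the 23 loci, but the set with a like share is small.

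**Figure D3:**
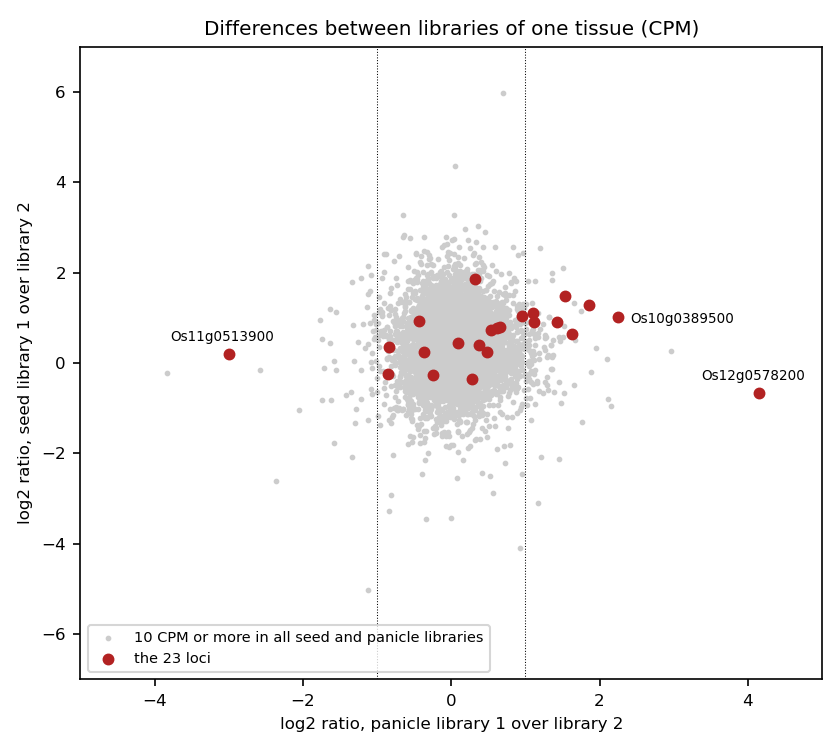
Log2 CPM ratio of library 1 over library 2 in panicle (horizontal) and seed (vertical) for the 23 loci (red) and all 8077 loci with 10 CPM or more in the 4 libraries (grey). Dotted lines mark a 2-fold difference between panicle libraries, with 9 red points outside them.

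Seed and panicle were next compared in level. The rule asked the same CPM of both and did not use which was higher, but its limit was set before TMM scaling. The TMM factors, given below, were higher in panicle than in seed, so on that scale the limit lay lower in panicle. Os06g0602400, for one, had 7.16 TMM CPM in panicle 2. The rule thus favoured loci higher in seed on the TMM scale, and it left out loci low in either tissue. Directions, calls and medians of the 23 therefore only describe the chosen loci. Of the 23 loci, 2 were called higher in seed and 3 lower (edgeR, adjusted p under 0.05 over all 26784 tested loci and 2-fold or more). That is 8.70% and 13.0% of the loci. Of all tested loci 17.1% were called higher in seed and 10.1% lower, 27.2% in all. Of the 8077 loci with 10 CPM or more in every seed and panicle library, 15.3% were called higher in seed and 5.63% lower. All 23 loci passed the filter on low counts. The median log2 fold change of seed over panicle was 0.63 for the 23 loci, 0.21 for the 8077 loci and 0.10 for all tested loci. Values from here to the end of the comparison are on the TMM scale.

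The call towards panicle with the widest difference was Os06g0162800, with 23.2 ± 7.69 TMM CPM in seed and 127 ± 62.3 TMM CPM in panicle (SD, n = 2 each). Its log2 fold change was -2.45 (SE 0.47; edgeR, adjusted p = 0.0114), or 5.45-fold lower in seed. Os02g0682200 had 38.0 ± 27.8 TMM CPM in seed and 149 ± 18.0 TMM CPM in panicle (SD, n = 2 each). The log2 fold change came to -1.96 (SE 0.52; edgeR, adjusted p = 0.0327). Os07g0108900 had 106 ± 2.11 TMM CPM in seed and 383 ± 81.9 TMM CPM in panicle (SD, n = 2 each), with -1.85 on the log2 scale (SE 0.31; edgeR, adjusted p = 0.0102). All 3 are among the 10 loci of the set with the highest mean CPM before TMM scaling, a ranking that their own panicle levels raise.

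Towards seed, Os08g0480200 had 52.7 ± 1.09 TMM CPM in seed and 13.6 ± 2.71 TMM CPM in panicle (SD, n = 2 each). Its log2 fold change was 1.95 (SE 0.48; edgeR, adjusted p = 0.0258). Os03g0213600 had 41.2 ± 9.45 TMM CPM in seed and 16.4 ± 2.54 TMM CPM in panicle (SD, n = 2 each), with 1.33 on the log2 scale (SE 0.38; edgeR, adjusted p = 0.0421). In all 5 called loci both libraries of one tissue lay above both of the other. Os06g0602400 had the largest fold change towards seed, at 2.23 on the log2 scale, and missed the limit (edgeR, SE 0.68, adjusted p = 0.0507). It was called under 8 of 17 alternative settings (edgeR or DESeq2, adjusted p 0.00807 to 0.157). Os11g0517800 also missed it, at 1.60 (edgeR, SE 0.49, adjusted p = 0.0509), and was called under 6 of the 17 (edgeR or DESeq2, adjusted p 0.0156 to 0.226).

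The remaining 16 loci had log2 fold changes between -1.30 and 1.24 and were not called, which does not show equal levels. Without any regard to the test, both seed libraries lay above both panicle libraries in 10 of 23 loci and below them in 5. Over all tested loci the same held for 34.9% and 30.9%. At Os12g0578200 the log2 fold change was 0.63 with an SE of 1.06, and at Os11g0513900 it was -0.10 with an SE of 0.84, the widest errors of the set. Leaving out panicle 1 changed the value of Os12g0578200 to 3.80 (edgeR, adjusted p = 0.023, the lowest over its alternatives, the highest being 0.963), and leaving out panicle 2 changed it to -0.26. At Os11g0513900 it was 2.16 without panicle 2 and -0.93 without panicle 1.

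Each of the 5 calls was lost in at least 1 fit that left out a library, with the direction unchanged. A leaf library holds no seed or panicle level and enters these fits through the shared estimate of spread and the loci tested. The call of Os06g0162800 was lost without panicle 1 (edgeR, adjusted p = 0.0606; range over 17 alternatives 2.18e-05 to 0.0606), where its log2 fold change was -1.82. That of Os07g0108900 was lost without panicle 2 (edgeR, adjusted p = 0.0627, the highest of its alternatives, the lowest being 1.79e-07), at a log2 fold change of -1.59. Os02g0682200 was not called without leaf 1, leaf 2, panicle 1 or panicle 2 (edgeR, adjusted p = 0.0742, 0.0742, 0.109 and 0.083; lowest over its alternatives 0.0007), although its log2 fold change in those 4 fits was -1.96, -1.96, -1.83 and -2.06. It was -3.01 when seed 1 was dropped and -1.36 when seed 2 was, and the call was kept in both. Os08g0480200 was not called without panicle 1 or panicle 2 (edgeR, adjusted p = 0.0833 and 0.13; lowest 0.00046), at log2 fold changes of 2.18 and 1.78. Os03g0213600 was not called without leaf 1, leaf 2, panicle 1, panicle 2 or seed 2 (edgeR, adjusted p = 0.0633, 0.0626, 0.193, 0.125 and 0.083; lowest 0.00732), at log2 fold changes of 1.33, 1.33, 1.19, 1.52 and 1.08. All 5 kept their direction under each of the 17 alternatives. Os06g0162800 was called under 16 of the 17, Os07g0108900 under 15, Os08g0480200 under 13, Os02g0682200 under 11 and Os03g0213600 under 8. Among the 17, the settings with no fold minimum and with a 4-fold minimum reuse the main fit and its p-values. The former therefore keeps every main call. In the fit on only seed and panicle libraries, Os02g0682200 and Os03g0213600 were not called (edgeR, adjusted p = 0.0503 and 0.051).

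Library scaling moved all loci together. The TMM factors were 0.914 and 0.791 in seed and 1.51 and 1.44 in panicle. Without them the median log2 fold change of all tested loci was -0.63 in place of 0.10, and no locus of the 23 was called higher in seed while 5 were called lower. Relative to the median of all loci, the median of the 23 was 0.53 higher with the factors and 0.41 higher without. On that relative scale Os08g0480200 stood at 1.85 with the factors and 1.79 without, and Os06g0162800 at -2.55 and -2.60.

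**Figure D4:**
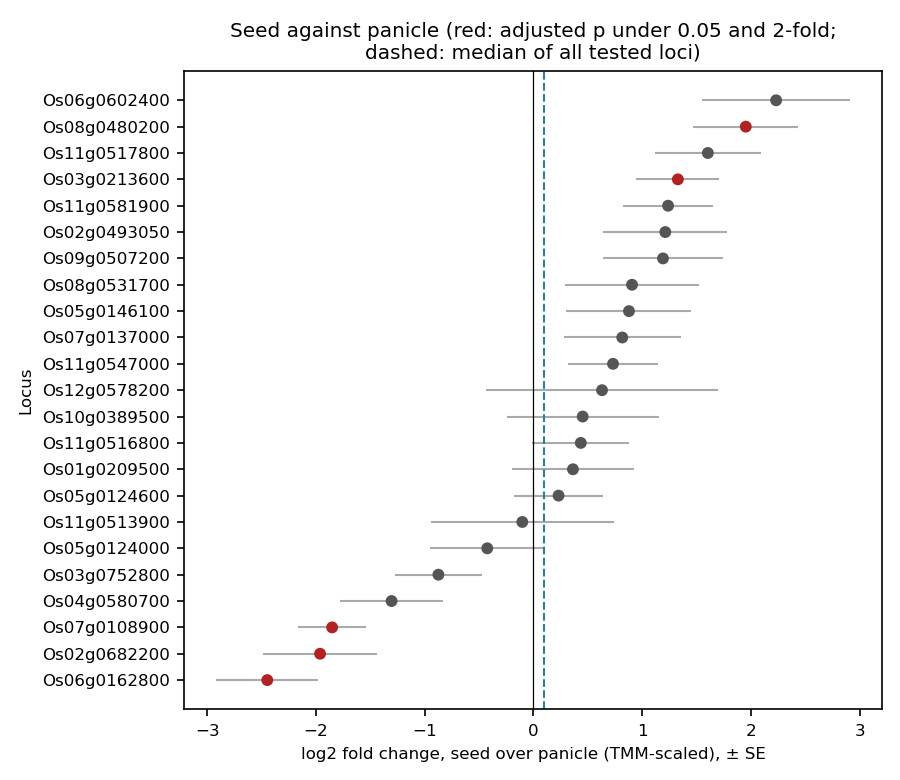
Log2 fold change of seed over panicle for each of the 23 loci with its standard error, after TMM scaling. Red points are the 5 loci called at an adjusted p under 0.05 and 2-fold, and the dashed line is the median of all tested loci at 0.10.

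Exon bins were examined because the study asked about alternative transcripts and the rule did not use them. The 23 loci had 4 to 25 bins, with a median of 9, and none had a single bin. The median was 8 for the 8077 loci and 3 for all loci. A single bin was found in 2.88% of the 8077 and in 29.1% of all loci, so its absence from the 23 is not a trait of the set. Of the 225 bins of the 23 loci, 224 had a count in seed or panicle. The exception was 1 of the 4 bins of Os11g0547000.

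No locus of the 23 was called for a difference in bin usage between seed and panicle. In all loci tested edgeR called 21 of 18512, or 0.113%. No locus of the 23 had an unadjusted p under 0.05 in edgeR, with a smallest value of 0.154 for Os08g0480200. Such values were rare over all loci too, at 274 of 18512, so their absence here does not show equal bin usage. Voom with diffSplice also called none, with 1 of 23 at an unadjusted p under 0.05, against 554 of all 18512 loci. It called 30 loci in all, or 0.162%.

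The size of these differences can be read from the percentage of counts that would have to move to other bins to turn the profile of one library into that of another. Between seed libraries it ran from 3.92% to 17.0% over the 23 loci, with a median of 9.36%. Between panicle libraries it ran from 1.85% to 16.3%, with a median of 7.31%. Between a seed and a panicle library the lowest of the 4 values per locus had a median of 6.18% and the highest a median of 12.9%. In 3 loci, Os05g0146100, Os05g0124000 and Os05g0124600, every seed to panicle difference exceeded both replicate differences. That is 13.0% of the 23, and the same held for 604 of the 7844 loci with 2 or more bins among the 8077, or 7.7%. At Os05g0124000 the margin was small, with 8.65% for the lowest seed to panicle difference against 8.59% between seed libraries. Os05g0124000 and Os05g0124600 had 168 to 1406 counts per seed or panicle library.

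The bin with the largest difference was bin 1 of 10 of Os01g0209500, with 14.9% and 21.5% of the locus's counts in seed, against 31.0% and 27.8% in panicle. The libraries did not overlap, yet the bin was not called (edgeR, unadjusted p = 0.238). Bin 6 of 6 of Os06g0602400 held 31.3% and 35.4% in seed, against 43.1% and 43.4% in panicle (edgeR, unadjusted p = 0.576). At Os11g0547000 a single bin, bin 2 of 4, held 76.0% and 82.2% of counts in seed, against 81.5% and 89.0% in panicle. The same bin held 56 of the locus's 75 counts in root and leaf. These bins were picked by the size of the difference or of the share.

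**Figure D5:**
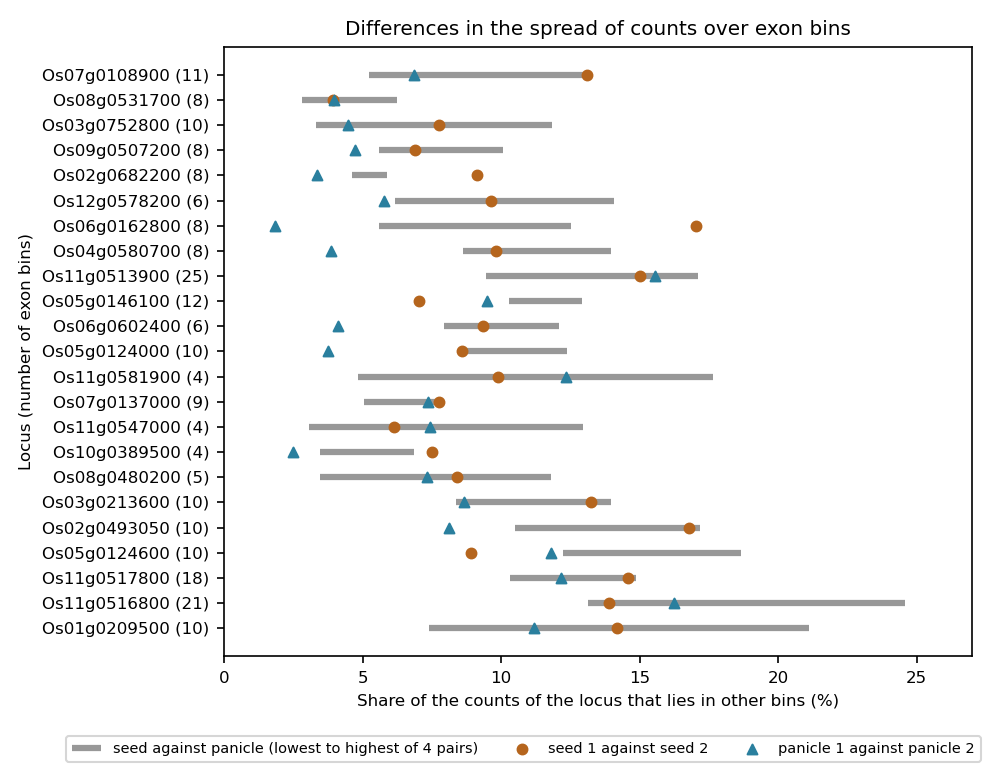
Share of the counts of each locus (percent) that lies in other bins between 2 libraries, for seed 1 against seed 2 (circles), panicle 1 against panicle 2 (triangles) and the 4 pairs of a seed and a panicle library (grey bars, lowest to highest). The bar starts above both replicate differences at Os05g0146100, Os05g0124000 and Os05g0124600.

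Rice locus IDs carry the chromosome and are numbered in order along it. The 23 loci fell on all 12 chromosomes, with 5 on chromosome 11 (21.7%), which holds 6.40% of all loci and 4.30% of the 8077. Os05g0124000 and Os05g0124600 are next to each other in the list, with no locus between them. Os05g0124000 had 32.1 and 18.4 CPM in seed, against 71.3 and 45.2 CPM in panicle, and Os05g0124600 had 23.1 and 14.0 CPM in seed, against 32.2 and 22.2 CPM in panicle. Both have 10 bins, and they had 6 and 1 counts in root and leaf together.

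Os11g0513900, Os11g0516800 and Os11g0517800 lie within a stretch of 19 listed loci on chromosome 11. Os11g0517400, just below the minimum, lies there too, with 19.5 and 14.8 CPM in seed, against 9.38 and 19.7 CPM in panicle. All 4 were higher in panicle 2 than in panicle 1, by 8.01-fold, 1.80-fold, 1.80-fold and 2.10-fold in the order of naming. Of the 8077 loci with 10 CPM or more in all seed and panicle libraries, 3087 were higher in panicle 2 on this scale. The stretch was picked after the list of loci was known, and an effect of the region was not tested. Of the 16 other loci of the stretch, Os11g0517400 included, 11 had a mean of 1 CPM or more in panicle. Among those 11, 7 were higher in panicle 2, each by over 1.5-fold, while 8 of the 16 reached 1 CPM in root or leaf. One of the 7 higher in panicle 2, Os11g0516400, had no count in panicle 1 and 12.0 CPM in panicle 2, and no count in any other library. Reads of near-identical neighbouring copies could be split or lost in counting, which was not tested, so the levels of adjacent loci are uncertain.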

How the data were processed

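Paired-end RNA sequencing on an Illumina HiSeq (series design text) gave 1 table per library for 7 libraries. The deposited values are whole-number counts per exon bin, not normalized, for 178317 bins of 37858 loci. Per the submitters' processing notes, the build was IRGSP-1.0 and the tools included TopHat2 2.0.4, HTSeq, SAMtools 1.2, Bowtie2, bcl2fastq 1.8.4 and Cufflinks, with no step named for any. No source used here gives the strand setting, read filters or annotation release. With strand unknown, a locus and an antisense partner cannot be told apart. Each library also has 5 rows that name no gene (12.2% to 15.8% of counts), which were left out.

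Bins were summed per locus. The level test used edgeR 4.0.16 under R 4.3.3 (filterByExpr with a minimum count of 10 in 1 library, TMM, glmQLFit and glmQLFTest) in 1 model of 4 tissue means over all 7 libraries, with Benjamini-Hochberg adjustment over all tested loci. Bin usage was tested with diffSpliceDGE (Simes). An SE is the size of the log2 fold change divided by the root of the F statistic. Alternatives used DESeq2 1.42.0 and limma 3.58.1. Steps were tested on simulated data.

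Loci named are the 10 with the highest mean CPM, the called loci without overlap, and 3 on each side of each limit; the rule took 2 called loci per direction, and the others were named after their values were seen. The loci and lists were chosen with earlier results of these data known. Of all IDs 1 was matched in the RefSeq table (assembly ASM3414082v1) and of the 23 none, so lists by product or marker name were not used.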

Additional observations from a re-analysis of the deposited data

How the results depend on the processing

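The number of loci that met the limits was 23. It was 48 at a minimum of 5 CPM, 8 at 20 CPM and 40 with tissue means in place of single libraries, and between 16 and 32 under the other settings that kept all libraries. With the largest bin in place of the sum, 12 of the 23 were kept, and on the TMM-scaled library size 17 were. Leaving out 1 library gave 25 to 34 loci. Calls towards seed (2) were 0 without scaling factors, 4 with TMM factors computed without the 100 most abundant loci, 5 with DESeq2, 4 without the low-count filter, 1 with the largest bin and 0 at a 4-fold minimum. Leaving out 1 library gave 0 to 5, the lowest without panicle 2 and the highest without root. Calls towards panicle (3) were 5 without scaling factors and 1 at a 4-fold minimum, and 1 to 5 with 1 library left out. Usage calls were 0 in every setting, leaving out 1 library included. The cause of these differences was not tested, beyond fewer libraries or another limit where that was the change.

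The replicate numbers in the titles come with no stated pairing, and deviations of the same number correlated across loci at 0.04 between seed and panicle, 0.22 between seed and leaf and 0.14 between panicle and leaf. With the replicate block, 5 loci were called towards seed and 3 towards panicle. The 5 were the 2 called without it and Os06g0602400, Os09g0507200 and Os11g0517800 (edgeR, adjusted p = 0.0225, 0.0339 and 0.0351).

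The log2 fold change turned round at 7 of the 23 loci, none of them among the 5 called. For Os12g0578200 it was -0.22 without scaling factors, and between -0.26 and 3.80 when single libraries were dropped. For Os11g0513900 it was 0.0257 with the largest bin and 0.61 with the replicate block, and between -0.93 and 2.16 when single libraries were dropped. Without scaling factors it was -0.0563 for Os11g0547000, -0.33 for Os10g0389500, -0.55 for Os05g0124600, -0.34 for Os11g0516800 and -0.45 for Os01g0209500, and with the largest bin it was -0.0657 for Os05g0124600 and -0.25 for Os01g0209500. With single libraries dropped it was between -0.24 and 1.92 for Os10g0389500 and between -0.0484 and 0.49 for Os05g0124600. Loci over 2-fold apart between seed libraries were 6, and 3 on the TMM scale, a setting chosen after seeing the data. With 2 libraries per tissue and a median SE of 0.52, log2 differences well above that size could go uncalled. Os06g0602400 at 2.23 and Os11g0517800 at 1.60 were not called, and the smallest called difference was 1.33, for Os03g0213600.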
